A study of Mus musculus with 12 samples.

Results

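The genes described here are 9 that take up or bind long-chain fatty acids: *Cd36*, 4 fatty acid binding protein (FABP) genes, *Fabp1*, *Fabp2*, *Fabp4* and *Fabp5*, and 4 fatty acid transport protein (FATP) genes, *Slc27a1*, *Slc27a2*, *Slc27a4* and *Slc27a5*. They were chosen by symbol, through the Ensembl identifiers of a table of 35275 mouse genes, and all 9 were found there and expressed highly enough to be tested. RNA was sequenced from whole livers of 12 mice in 4 groups of 3, wild-type (WT) mice and *Pctp*-/- mice fed either chow or a methionine and choline depleted (MCD) diet. The *Pctp*-/- mice lack phosphatidylcholine transfer protein (PC-TP), a soluble carrier of phosphatidylcholine, in the whole body and not only in hepatocytes. The study's animals were male, and the age of these mice and the length of MCD feeding are not given in the sources used here. The comparisons ask how the genes respond to the diet, to the loss of PC-TP, and to both.

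Long-chain fatty acids reach the liver bound to albumin or within lipoproteins. CD36, a scavenger receptor and fatty acid translocase, and the FATPs, which also carry acyl-CoA synthetase activity, promote their entry at the cell surface, and FABPs bind them in the cytosol and carry them to membranes, mitochondria and nuclear receptors. The PPAR nuclear receptors, which act as dimers with RXR, are known to control many of these genes, and feeding rodents a diet without methionine and choline is a standard way to produce fatty liver with inflammation.

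The levels are FPKM, fragments scaled by gene length and by depth, so that genes may be set side by side. The libraries held between 30486576 and 55179468 uniquely mapped reads (median 40511582). Of 11 read quality and mapping percentages, 10 did not overlap between the diets, for example uniquely mapped reads at 77.59 to 79.41% in the chow libraries and 85.66 to 87.55% in the MCD libraries, so that an effect of diet and an effect of this split in read quality and mapping cannot be told apart. The genotypes were compared within a diet. The targeted gene had a mean of 2.04 FPKM in WT livers and 0.420 in knockout livers on chow, and of 5.54 and 0.259 on MCD (n = 3 each), and the genotypes did not overlap on either diet. Markers of hepatocytes summed to between 41891 and 47123 FPKM in the chow libraries. On MCD the sums were 53894 to 61123 in WT and 69200 to 75095 in *Pctp*-/- livers. *Alb* was the largest part, with means of 27788 FPKM in WT mice on chow and 43899 on MCD. Markers of skeletal and heart muscle summed to 49.6 and 47.3 FPKM in WT MCD replicates 1 and 2, to 0 in replicate 3 and to at most 0.494 in each of the other libraries, and the diet and knockout results that rest on those libraries are also given without them, with the lone WT MCD liver then assumed to vary like the other groups. In whole liver, a change in the number of cells of a type and a change in RNA per cell cannot be told apart.

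The start sites of 3 genes are shown because their RNA moved furthest among the members with a promoter in the RefSeq table of GRCm38.p6 or, for *Fabp1*, made up most of the family. The 250 bases before the start site are printed 5′ to 3′ on the gene's strand, for *Cd36* (chr5:17835897-17836146, minus strand, a start site within the annotated gene), *Fabp1* (chr6:71199629-71199878, plus strand) and *Fabp2* (chr3:122894822-122895071, plus strand). Capitals mark matches, on either strand, to AGGTCANAGGTCA with at most 2 mismatches, the DR1 element to which PPAR-RXR dimers and HNF4A can bind, and exact matches to TATAAA.
Cd36: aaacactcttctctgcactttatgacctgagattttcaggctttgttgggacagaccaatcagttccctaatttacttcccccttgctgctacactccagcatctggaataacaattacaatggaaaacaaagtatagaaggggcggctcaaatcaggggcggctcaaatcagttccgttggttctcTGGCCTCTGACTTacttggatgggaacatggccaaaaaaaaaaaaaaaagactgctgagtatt
Fabp1: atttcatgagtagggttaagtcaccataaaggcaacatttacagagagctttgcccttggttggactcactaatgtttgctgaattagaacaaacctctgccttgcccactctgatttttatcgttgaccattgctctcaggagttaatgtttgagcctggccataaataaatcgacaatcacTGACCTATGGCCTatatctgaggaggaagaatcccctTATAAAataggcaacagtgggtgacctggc
Fabp2: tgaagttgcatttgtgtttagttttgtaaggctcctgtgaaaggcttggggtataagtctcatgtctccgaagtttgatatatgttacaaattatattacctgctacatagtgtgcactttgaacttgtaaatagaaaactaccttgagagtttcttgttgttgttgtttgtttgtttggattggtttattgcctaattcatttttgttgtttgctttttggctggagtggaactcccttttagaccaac
The DR1 match began at -63 in *Cd36* with 2 mismatches and at -67 in *Fabp1* with 1 mismatch, and the TATAAA of *Fabp1* began at -30. The marked matches do not overlap. As with *Cd36*, the start site used for *Fabp1* lies within the annotated gene, which begins at 71199827, and so does its TATAAA. Windows that also took in the 50 bases after the start site were searched, and 3.86% of all 32851 such windows held a DR1 match and 13.6% held TATAAA. Of the 9 genes, 6 had a window, with 8 windows in all, and those of *Fabp2*, *Slc27a1*, *Slc27a2* and *Slc27a4* held neither sequence. *Fabp4*, *Fabp5* and *Slc27a5* had none in the table. A match is only a likeness of letters, and binding was not measured.

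**Figure D1:**
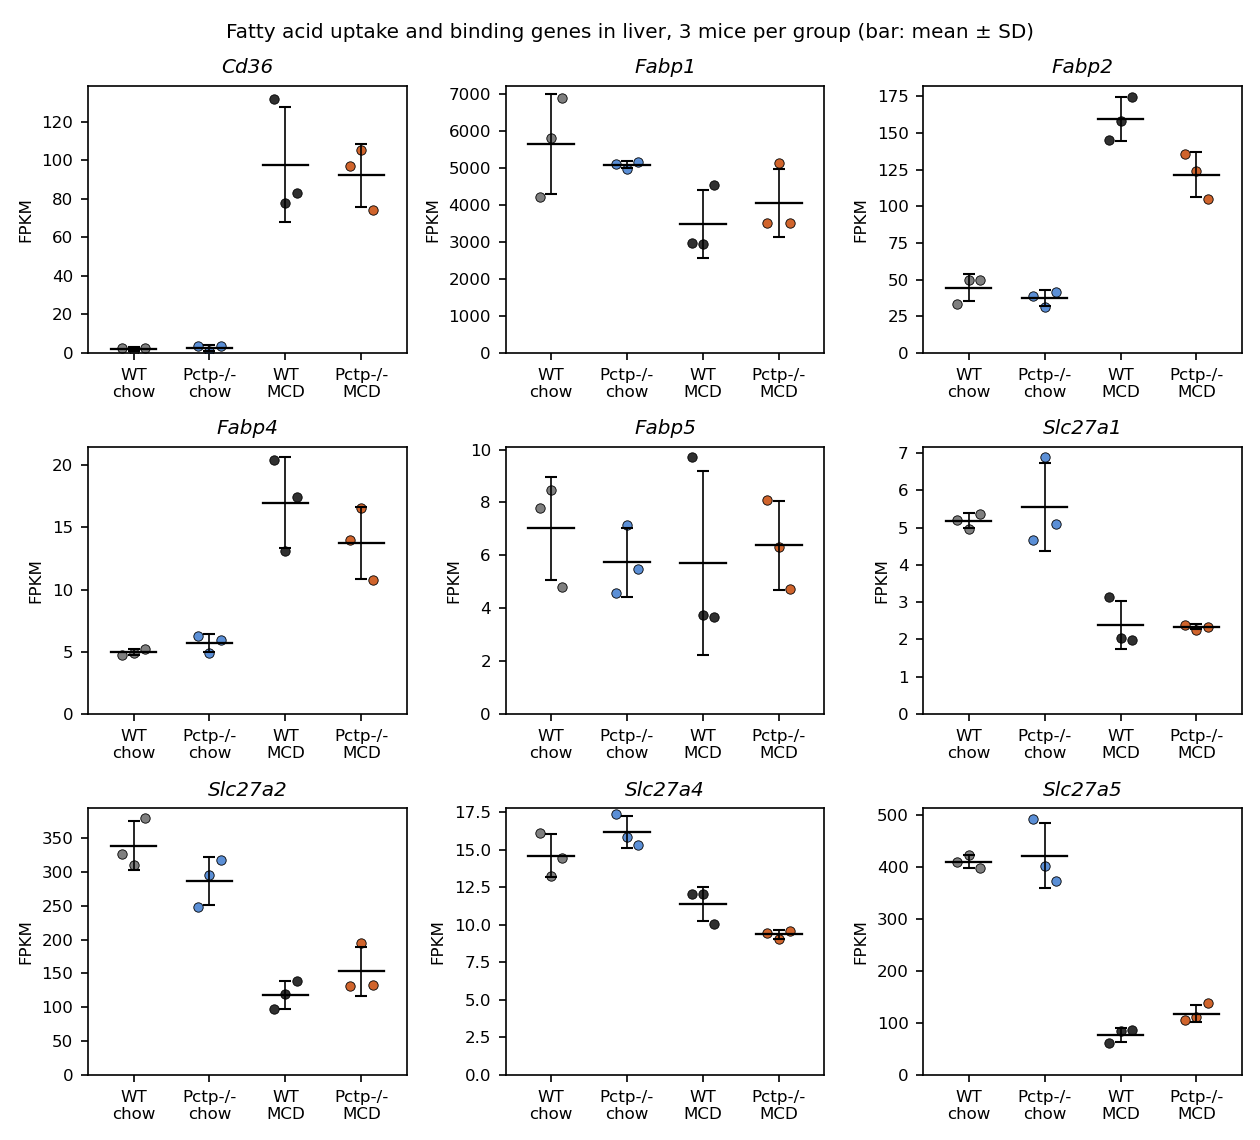
FPKM (vertical axes, linear, each gene on its own scale) of the 9 genes in the 12 livers by genotype and diet (horizontal axes), with 1 point per mouse, a bar at the group mean and whiskers of 1 SD. *Cd36*, *Fabp2* and *Fabp4* were higher in every MCD liver than in every chow liver, and the 4 FATP genes were lower.

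On chow, *Fabp1* stood far above the other members. Its mean was 5651 FPKM in WT mice, followed by *Slc27a5* (411), *Slc27a2* (339), *Fabp2* (44.4), *Slc27a4* (14.6), *Fabp5* (7.03), *Slc27a1* (5.18), *Fabp4* (4.98) and *Cd36* (2.04). The ranges of *Fabp5*, *Slc27a1* and *Fabp4* overlapped with their neighbours in this order, and the other neighbours did not overlap. In WT mice on MCD the order became *Fabp1* (3491), *Fabp2* (159), *Slc27a2* (119), *Cd36* (97.7), *Slc27a5* (77.3), *Fabp4* (17.0), *Slc27a4* (11.4), *Fabp5* (5.72) and *Slc27a1* (2.39), where *Cd36* overlapped with *Slc27a2* and with *Slc27a5*. *Cd36* thus passed from the lowest member to among the middle ones, and from above 26.3% of the tested genes to above 94.5%. In *Pctp*-/- mice it passed from 32.8% to 94.4%.

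The MCD diet changed 8 of the 9 members in WT mice, 3 of them upward and 5 downward, and 7 of 9 in *Pctp*-/- mice, 3 upward and 4 downward. A gene was called changed at an adjusted p under 0.05 in limma on log2(FPKM + 1), a scale on which changes of weakly expressed genes come out too small. Of the 12466 genes tested, 57% were called in WT mice (34.5% higher, 22.5% lower) and 50.3% in *Pctp*-/- mice (26% higher, 24.4% lower), so a call by itself is common on this diet. The diets did not overlap in 7 of the 9 members in each genotype, all but *Fabp1* and *Fabp5*, against 63.7% of all tested genes in WT and 59.7% in *Pctp*-/- mice. The median absolute log2 fold change was 1.52 over the members and 0.42 over all tested genes in WT mice, and 0.96 and 0.37 in *Pctp*-/- mice. The members were chosen with earlier results of these data known, so this is no test of them. In WT mice the lists described below gave 2.24 (other FABP and FATP genes), 1.02 (nuclear factors), 0.93 (fatty acid activation), 0.57 (supply) and 0.36 (CD36 trafficking). With median-of-ratios scaling the median log2 fold change of all genes on MCD in WT mice moved from 0.11 to -0.0013, a shift of -0.11, and their split from 4300 higher and 2810 lower to 3546 and 3527, while all calls and directions of the members for the diet stayed.

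*Cd36* showed the largest diet effect of the 9 genes. The gene spans chr5:17781690-17888801 of GRCm38, minus strand. In WT mice its FPKM was 2.55, 0.922 and 2.64 on chow and 132, 78.1 and 82.9 on MCD. The *Pctp*-/- livers held 3.51, 0.984 and 3.82 on chow and 97.2, 105 and 74.1 on MCD. The diets were far apart in both genotypes, the lowest MCD liver being 29.6-fold above the highest chow liver in WT and 19.4-fold in *Pctp*-/- mice. The means were 2.04 ± 0.966 (SD, n = 3) and 97.7 ± 29.8 (SD, n = 3) in WT mice, a 48.0-fold rise (log2 fold change 5.04, standard error 0.34, adjusted p = 4.03e-07). In *Pctp*-/- mice the means were 2.77 ± 1.56 (SD, n = 3) and 92.3 ± 16.3 (SD, n = 3), a 33.3-fold rise (log2 fold change 4.72, standard error 0.34, adjusted p = 7.61e-07). The rise was not detectably different between the genotypes (difference -0.32, 95% interval -1.37 to 0.73, adjusted p = 0.792).

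CD36 is also made by macrophages and endothelial cells, and markers of these cells were read beside it. Of 14 tested macrophage and Kupffer cell markers, 13 rose with MCD in WT mice and 7 in *Pctp*-/- mice. Of all tested genes, 34.5% and 26% were called higher. The difference between the genotypes in this response was called for 0 of these 14. *Gpnmb*, *Trem2* and *Itgam* were at or below 0.414 FPKM in every chow liver. They passed the filter only through their MCD values, so their rise is no separate result. The 15 listed genes summed to 86.6 to 197 FPKM on chow. On MCD they summed to 345 to 690 in WT and 360 to 457 in *Pctp*-/- mice. *Gpnmb*, a marker of lipid-associated macrophages, had a mean of 0.0459 FPKM in WT mice on chow and was at 14.2, 16.5 and 69.9 FPKM in the single WT livers on MCD (log2 fold change 4.67, adjusted p = 3.82e-06), so that 1 liver made up most of the MCD mean of 33.5 ± 31.5 (SD, n = 3). In *Pctp*-/- mice it went from a mean of 0.0188 to 44.6 ± 11.0 FPKM (SD, n = 3; 5.45, adjusted p = 1.62e-06). *Lyz2*, the lysozyme gene of myeloid cells, rose from a mean of 19.9 to 211 FPKM in WT mice (3.26, adjusted p = 2.38e-05) and from 23.9 to 191 in *Pctp*-/- mice (3.04, adjusted p = 5.22e-05). *Clec4f*, which marks resident Kupffer cells, was at 34.2 and 67.0 FPKM in WT mice (0.92, adjusted p = 0.0246) and at 41.3 and 43.5 in *Pctp*-/- mice (0.17, adjusted p = 0.673). In each genotype on chow, replicate 2 had the lowest *Cd36* and also the lowest summed markers of macrophages (92.6 FPKM in WT, 86.6 in *Pctp*-/-), of endothelial cells (88.6 and 91.0) and of stellate cells (16.5 and 20.3). Of 14 endothelial and sinusoidal markers, 5 rose and 1 fell in WT mice and 2 rose and 2 fell in *Pctp*-/- mice, and *Pecam1*, *Cdh5* and *Stab2* were not called in either. On the log2(FPKM + 1) scale the rises were largest for *Rspo3*, a Wnt pathway enhancer, and the Fc receptor gene *Fcgr2b*. *Rspo3* went from 1.36 to 3.88 FPKM in WT and from 1.18 to 3.32 in *Pctp*-/- mice, and *Fcgr2b* from 12.1 to 26.1 and from 11.4 to 23.1. *Oit3*, *Lyve1* and *Clec4g* rose in WT mice, *Lyve1* from 0.800 to 1.95 FPKM, and were not called in *Pctp*-/- mice, a difference between genotypes that was called for none of the 14. Without both muscle-marked WT livers the diet raised 12 macrophage markers in WT mice, and raised 4 and lowered 1 of the endothelial ones. Of 8 fat cell markers, *Adipoq*, *Plin1*, *Lep*, *Retn* and *Cfd* were at or below 0.284 FPKM in all libraries, and the other 3, which liver also expresses, were tested and changed with the diet in both genotypes. *Cidec*, which encodes a lipid droplet protein, rose from 3.71 to 38.3 FPKM in WT mice (2.91, adjusted p = 3.66e-05; 2.08 without both muscle-marked livers) and from 2.22 to 12.4 in *Pctp*-/- mice (2.07, adjusted p = 5.47e-04). *Lpl* is described with the lipoprotein genes. *Car3*, a carbonic anhydrase gene, fell from 3371 to 1099 FPKM in WT and from 3703 to 1731 in *Pctp*-/- mice, and was higher in *Pctp*-/- than in WT mice on MCD (0.65, adjusted p = 0.0193; adjusted p = 0.475 without both muscle-marked livers). The part of macrophages and of the other cell types in the *Cd36* result was not tested.

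**Figure D2:**
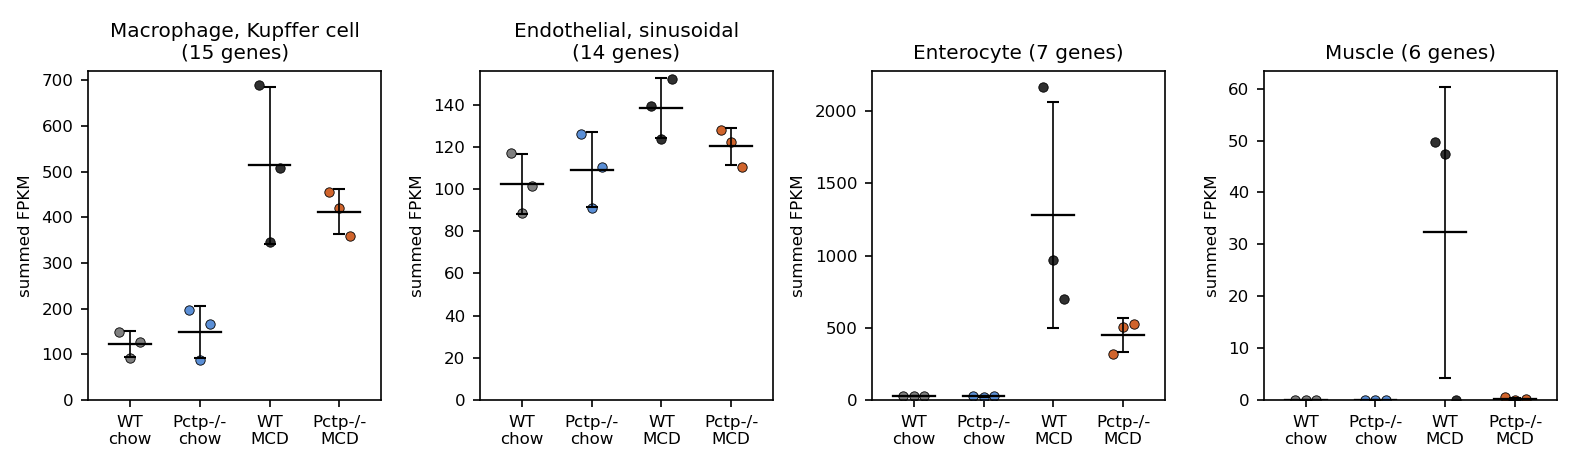
Summed FPKM of marker genes (vertical axes, linear) for 4 cell types in the 12 livers, by genotype and diet (horizontal axes), with a bar at the mean and whiskers of 1 SD. Macrophage markers summed to 345 FPKM or more in every MCD liver and to 197 or less in every chow liver, the enterocyte sum is nearly all *Apoa4*, and muscle markers stand out in 2 WT MCD livers only.

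Among the binding proteins, *Fabp1* (chromosome 6, 71199827 to 71205023, plus strand) encodes the liver form, one of the most abundant cytosolic proteins of hepatocytes. Its FPKM in WT mice was 4219.5, 5820.4 and 6913 on chow and 2980.4, 2941 and 4552 on MCD, so that the diets overlapped through a single mouse on each side. It was 5110.5, 4987 and 5177 in *Pctp*-/- mice on chow and 3529, 5135 and 3530.2 on MCD. The mean fell in WT mice from 5651 ± 1355 (SD, n = 3) to 3491 ± 919 (SD, n = 3), a log2 fold change of -0.70 (standard error 0.21, adjusted p = 0.0150). In *Pctp*-/- mice the means were 5092 ± 96.6 (SD, n = 3) and 4065 ± 927 (SD, n = 3), and the log2 fold change was -0.35 (95% interval -0.81 to 0.12, adjusted p = 0.195). The call in WT mice was lost without WT chow replicate 3 (-0.54, adjusted p = 0.0673), WT MCD replicate 1 (-0.60, adjusted p = 0.0553) or WT MCD replicate 2 (-0.59, adjusted p = 0.0591), with no filter on low values (adjusted p = 0.0677), and without both livers that held muscle markers (-0.28, adjusted p = 0.443). Over the 23 alternatives its adjusted p ran from 0.00395 to 0.443. *Fabp1* alone made up 1.15% of all FPKM in WT mice on chow and 0.664% on MCD, and 1.03% and 0.788% in *Pctp*-/- mice.

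*Fabp2*, the intestinal form, which is also expressed at lower level in liver, rose on MCD in both genotypes. The gene spans chr3:122895072-122899506, plus strand. The FPKM in WT mice was 33.7, 49.6 and 49.9 on chow and 145, 158 and 175 on MCD. Values in *Pctp*-/- mice were 39.1, 31.5 and 41.8 on chow and 135, 124 and 105 on MCD. No chow liver reached the lowest MCD liver. The rise was 3.58-fold in WT mice (log2 fold change 1.84, standard error 0.16, adjusted p = 2.47e-06) and 3.24-fold in *Pctp*-/- mice (1.67, standard error 0.16, adjusted p = 6.82e-06). An antisense gene on the opposite strand, *4933405D12Rik*, reached at most 0.486 FPKM. Of 7 enterocyte markers, *Vil1*, which encodes villin, and *Apoa4*, an apolipoprotein, rose with the diet in both genotypes. *Vil1* went from 0.0716 to 4.52 FPKM in WT and from 0.0401 to 5.98 in *Pctp*-/- mice. *Apoa4* went from 27.4 to 1273 FPKM in WT and from 26.4 to 443 in *Pctp*-/- mice, with 693, 965 and 2163 in the single WT livers on MCD, where 693 is the liver without muscle markers. The other 5, *Cdx2*, *Cdh17*, *Alpi*, *Lct* and *Sis*, were at or below 0.0909 FPKM in every library. The part of such cells in the *Fabp2* result was not tested.

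*Fabp4*, the form of fat cells and macrophages (chromosome 3, 10204088 to 10208576, minus strand), also rose. Its FPKM in WT mice was 4.75, 4.93 and 5.26 on chow and 20.4, 13.1 and 17.4 on MCD. The *Pctp*-/- values were 6.24, 4.91 and 5.97 on chow and 13.9, 16.5 and 10.8 on MCD. The diets were apart in both genotypes, and the chow livers lay close together. The rise was 3.41-fold in WT mice (log2 fold change 1.57, standard error 0.17, adjusted p = 1.10e-05) and 2.41-fold in *Pctp*-/- mice (1.12, standard error 0.17, adjusted p = 1.72e-04). The difference between these was -0.45 (95% interval -0.96 to 0.069, adjusted p = 0.395). The macrophage marker sums given with *Cd36* moved with *Fabp4* too, and their part in it was not tested.

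*Fabp5*, the epidermal form, also found in macrophages (chromosome 3, 10012548 to 10016607, plus strand), was not called in any comparison. Its FPKM in WT mice was 7.79, 8.47 and 4.82 on chow and 9.72, 3.75 and 3.67 on MCD. The *Pctp*-/- mice had 4.57, 7.14 and 5.49 on chow and 8.10, 6.31 and 4.71 on MCD. The 4 groups overlapped throughout, and 1 WT MCD liver, replicate 1, was higher than all the other livers. The processed pseudogene *Fabp5l2* reached at most 0.169 FPKM. Replicate 1 also had the highest macrophage marker sum, 690 FPKM. The log2 fold change with MCD in WT mice was -0.34 (95% interval -1.01 to 0.33, adjusted p = 0.361), and it was called without WT MCD replicate 1 (-0.74, adjusted p = 0.0243, the lowest of its alternatives, with 0.746 the highest). The value in *Pctp*-/- mice was 0.12 (95% interval -0.54 to 0.79, adjusted p = 0.761).

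The FATP genes moved the other way from *Cd36*, and all 4 fell on MCD in both genotypes. *Slc27a5* (chromosome 7, 12988346 to 12998192, minus strand) encodes FATP5, a liver transporter that is also the bile acid-CoA ligase. In WT mice its FPKM was 409.8, 424 and 399 on chow and 61.4, 84.0 and 86.5 on MCD. The *Pctp*-/- livers were at 492, 401 and 372 on chow and 106, 111 and 138 on MCD. Every chow liver was well above every MCD liver. The WT mean was 5.31-fold lower on MCD (log2 fold change -2.41, standard error 0.15, adjusted p = 1.83e-07) and the *Pctp*-/- mean 3.57-fold lower (-1.83, standard error 0.15, adjusted p = 1.84e-06).

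*Slc27a2* (chromosome 2, 126552407 to 126588243, plus strand) encodes FATP2, a very long-chain acyl-CoA synthetase and the other abundant liver FATP. In WT mice its FPKM was 326, 310.4 and 380.3 on chow and 97.1, 119.5 and 139 on MCD. The corresponding *Pctp*-/- values were 248, 295 and 317 on chow and 132, 195 and 132 on MCD. The diets did not overlap, though in *Pctp*-/- mice the lowest chow liver was only 1.28-fold above the highest MCD liver. The mean was 2.86-fold lower on MCD in WT mice (log2 fold change -1.52, standard error 0.17, adjusted p = 1.65e-05) and 1.87-fold lower in *Pctp*-/- mice (-0.92, standard error 0.17, adjusted p = 8.12e-04). A long intergenic RNA on the opposite strand, *Gm26697*, reached at most 0.293 FPKM.

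*Slc27a4* (chromosome 2, 29802634 to 29817522, plus strand) encodes FATP4, a long-chain acyl-CoA synthetase known best from intestine and skin. The values in WT mice were 16.1, 13.2 and 14.5 FPKM on chow and 12.03, 12.06 and 10.05 on MCD. Those in *Pctp*-/- mice were 17.4, 15.9 and 15.3 on chow and 9.49, 9.03 and 9.58 on MCD. The WT groups came within 1.098-fold of each other at their nearest values, the *Pctp*-/- groups within 1.60-fold. The log2 fold change was -0.33 in WT mice (standard error 0.10, adjusted p = 0.0137) and -0.73 in *Pctp*-/- mice (standard error 0.10, adjusted p = 1.04e-04). Without WT MCD replicate 3 the WT value was -0.25 and lost its call (adjusted p = 0.0639, the highest of its alternatives, with 0.00125 the lowest).

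*Slc27a1* (chromosome 8, 71568882 to 71587302, plus strand) encodes FATP1, the form of muscle and fat cells, and was among the lowest members. Its FPKM in WT mice was 5.20, 4.97 and 5.37 on chow and 3.14, 2.05 and 1.99 on MCD, and in *Pctp*-/- mice 4.66, 6.90 and 5.10 on chow and 2.40, 2.27 and 2.35 on MCD. No MCD liver reached a chow liver. The log2 fold change was -0.88 in WT mice (standard error 0.15, adjusted p = 3.05e-04) and -0.96 in *Pctp*-/- mice (standard error 0.15, adjusted p = 2.10e-04). Without both WT MCD livers that held muscle markers the WT value was -1.05 (adjusted p = 0.00199). Without those 2 livers the diet in WT mice gave log2 fold changes of 4.85 for *Cd36* (adjusted p = 1.17e-04), 1.97 for *Fabp2* (3.11e-04), 1.62 for *Fabp4* (4.03e-04), -2.23 for *Slc27a5* (3.32e-05), -1.27 for *Slc27a2* (0.00228) and -0.49 for *Slc27a4* (0.0200), all still called.

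**Figure D3:**
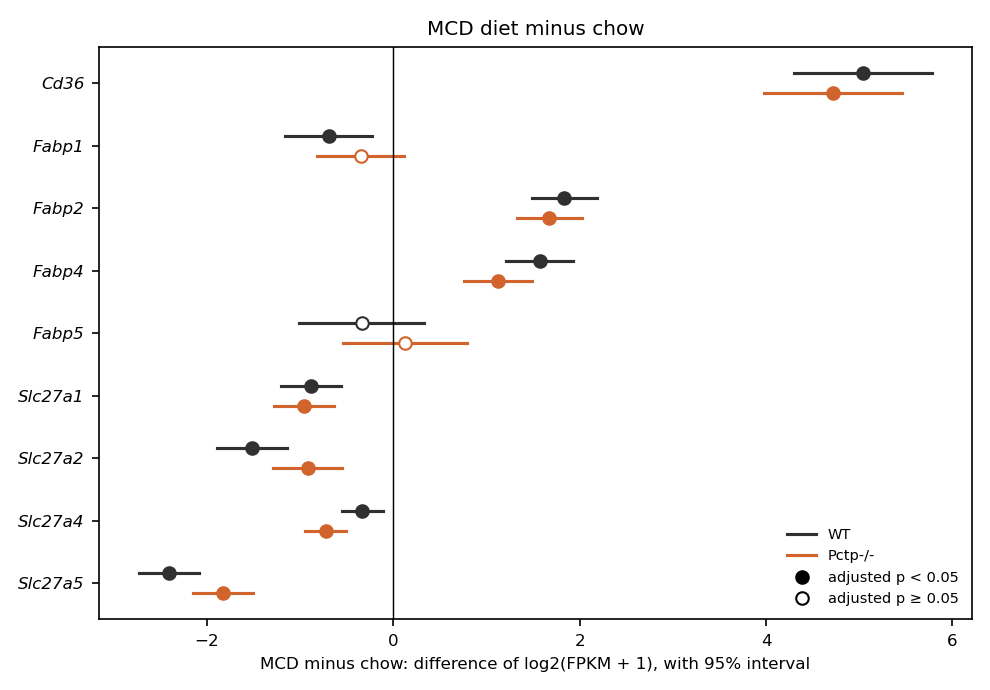
Difference of log2(FPKM + 1) between MCD and chow (horizontal axis) for the 9 genes (vertical axis), with WT in black, *Pctp*-/- in orange, lines for the 95% interval and filled points for an adjusted p under 0.05 in limma. The values run from -2.41 for *Slc27a5* to 5.04 for *Cd36* in WT mice, and the open points are *Fabp5* in both genotypes and *Fabp1* in *Pctp*-/- mice.

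Summed over the family, the 4 FATP genes summed to 769 ± 25.5 FPKM (SD, n = 3) in WT mice fed chow and 210 ± 32.7 (SD, n = 3) in WT mice fed MCD, and to 731 ± 28.2 (SD, n = 3) and 283 ± 34.0 (SD, n = 3) in the *Pctp*-/- groups. *Slc27a5* made up 53.4% of the WT sum on chow and 36.8% on MCD, and the ratio of *Slc27a5* to *Slc27a2* went from 1.22 ± 0.161 (SD, n = 3) to 0.652 ± 0.0437 (SD, n = 3). That ratio was 1.51 ± 0.422 (SD, n = 3) and 0.804 ± 0.234 (SD, n = 3) in the *Pctp*-/- groups. The FABP genes other than *Fabp1* summed to 56.4 ± 8.93 FPKM (SD, n = 3) in WT mice on chow and 182 ± 12.1 (SD, n = 3) on MCD, and *Fabp1* went from 98.99% to 94.9% of all FABP FPKM. In *Pctp*-/- mice the sum without *Fabp1* was 48.9 ± 4.91 (SD, n = 3) and 142 ± 19.1 (SD, n = 3). The WT MCD liver without muscle markers, replicate 3, had a FATP sum of 238 FPKM, a ratio of 0.622 and a FABP sum without *Fabp1* of 196. Of 8 tested hepatocyte markers, MCD raised 1 and lowered 5 in WT mice and raised 1 and lowered 3 in *Pctp*-/- mice. Their median log2 fold change was -0.50 in WT mice, -0.27 without both muscle-marked livers, and -0.11 in *Pctp*-/- mice. The part of hepatocytes in the FATP and *Fabp1* results was not tested.

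**Figure D4:**
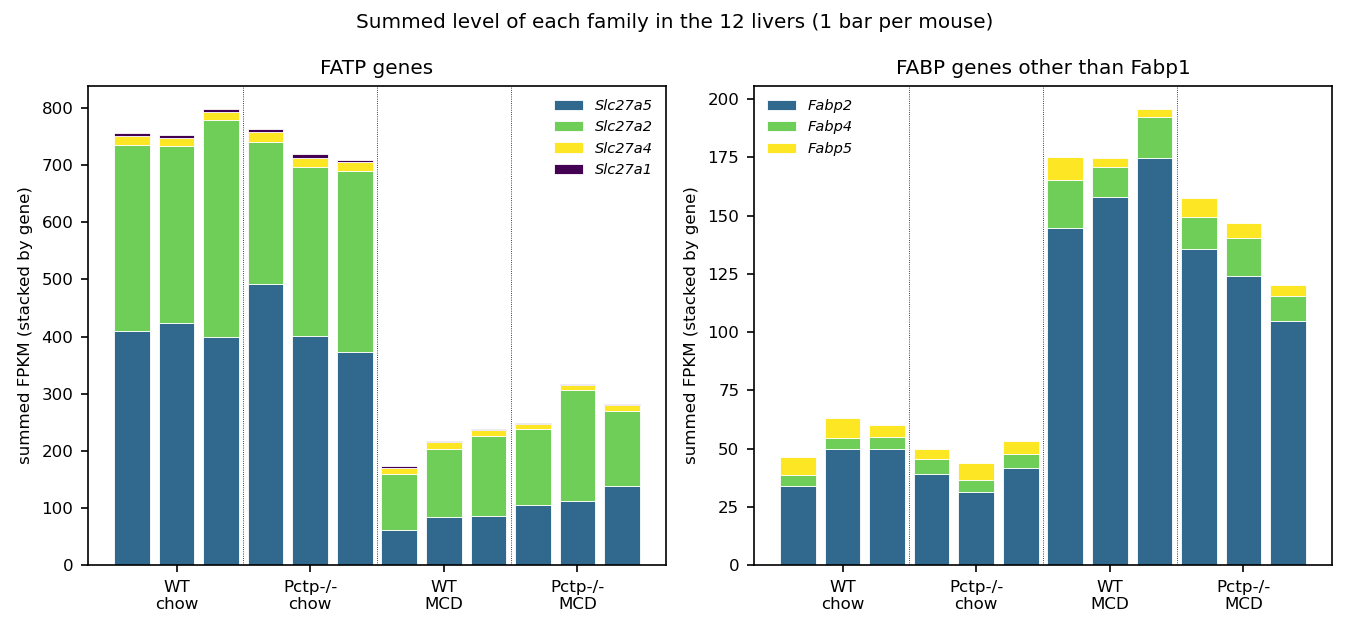
Summed FPKM (vertical axes, linear, stacked by gene) of the FATP genes (left) and of the FABP genes other than *Fabp1* (right), with 1 bar per mouse. The FATP sum of each MCD liver was 317 or less against 710 or more on chow, while the FABP sum without *Fabp1* was 120.4 or more on MCD against 63.0 or less on chow.

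Loss of PC-TP changed none of the 9 members at the threshold on either diet. On chow 0 of 9 were called, where 0.136% of all tested genes were called, and 0 of 9 had an unadjusted p under 0.05 in limma, against 6.98% of all tested genes. *Pctp* itself was not called on chow either (-1.07, adjusted p = 0.150 in limma), though it was on MCD (-2.33, adjusted p = 6.24e-04). A lack of calls on chow thus does not show that the members were unchanged. On MCD 0 of 9 were called, against 0.818% of all tested genes. There 3 of 9, *Fabp2*, *Slc27a4* and *Slc27a5*, had an unadjusted p under 0.05 and groups that did not overlap, against 16.3% of all tested genes with such a p and 26.6% with groups that did not overlap (5.5% higher, 21.1% lower). With 3 mice a group, the smallest two-sided p of an exact permutation test is 0.1. On chow the log2 differences, *Pctp*-/- minus WT, ran from -0.24 for *Slc27a2* to 0.27 for *Cd36*, and the *Cd36* interval of -0.48 to 1.01 leaves room for a change in either direction.

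*Slc27a5* had the largest knockout difference among the members on MCD. The WT livers were at 61.4, 84.0 and 86.5 FPKM and the *Pctp*-/- livers at 106, 111 and 138, so every *Pctp*-/- liver was higher. The mean was 1.53-fold higher (log2 difference 0.61, 95% interval 0.29 to 0.94, adjusted p = 0.0849). Over 23 alternative settings the adjusted p ran from 0.0533 to 0.972, and none called it. *Slc27a2* lay in the same direction, with a WT mean of 119 ± 21.0 FPKM (SD, n = 3), a *Pctp*-/- mean of 153 ± 36.1 (SD, n = 3) and overlapping groups (0.36, 95% interval -0.015 to 0.73, adjusted p = 0.325). The FATP sum was 174, 218 and 238 FPKM in WT and 249 to 317 in *Pctp*-/- livers on MCD. The WT values of 174 and 218 are those of the livers with muscle markers. *Slc27a4* lay in the other direction, with each *Pctp*-/- liver below each WT liver (-0.25, 95% interval -0.47 to -0.032, adjusted p = 0.246). *Fabp2* was likewise lower in each *Pctp*-/- liver, by 1.07-fold at the nearest values (-0.39, 95% interval -0.74 to -0.042, adjusted p = 0.257). The median log2 difference of all tested genes was itself -0.093 on MCD, and -0.0068 with median-of-ratios scaling. With that scaling *Slc27a4* was at -0.15 (standard error 0.094) and *Fabp2* at -0.28 (0.19). *Slc27a2* was then at 0.46 (0.19) and *Slc27a5* at 0.72 (0.18). *Cd36* (-0.056, 95% interval -0.80 to 0.69, adjusted p = 0.956) and *Slc27a1* (-0.0077, 95% interval -0.33 to 0.31, adjusted p = 0.988) were near 0. The remaining members, *Fabp1*, *Fabp4* and *Fabp5*, had adjusted p-values of 0.641, 0.430 and 0.761. Without both WT MCD livers that held muscle markers, the differences were 0.44 for *Slc27a5* (adjusted p = 0.972), 0.11 for *Slc27a2*, -0.092 for *Slc27a4* and -0.53 for *Fabp2* (adjusted p = 0.999 for these 3), with the lone WT liver assumed to vary like the other groups.

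**Figure D5:**
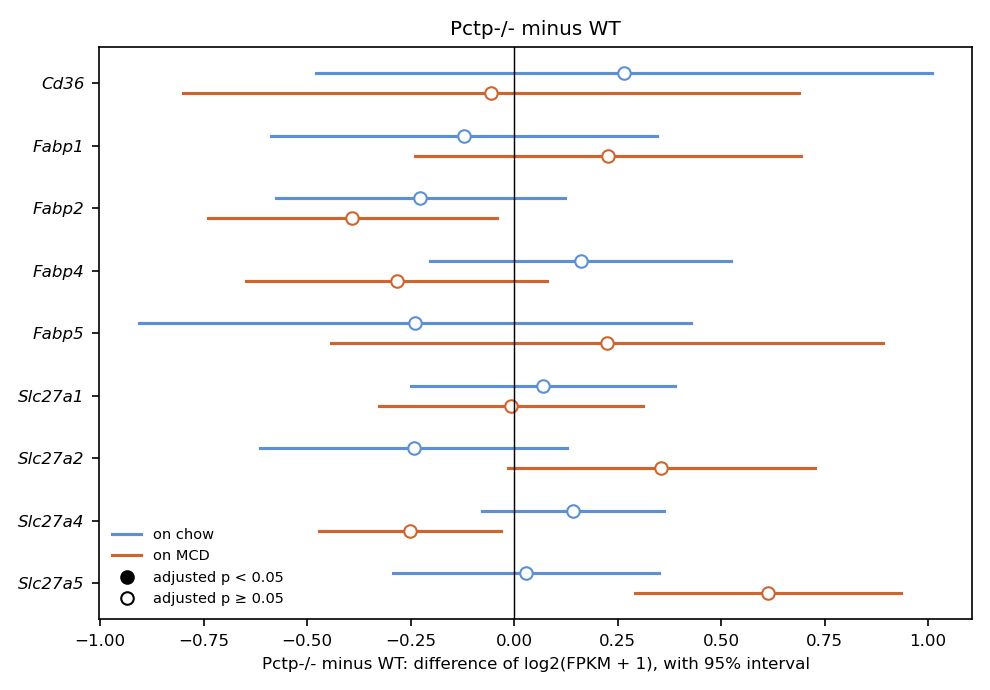
Difference of log2(FPKM + 1) between *Pctp*-/- and WT mice (horizontal axis) for the 9 genes (vertical axis), with chow in blue, MCD in orange and lines for the 95% interval. All points are open, an adjusted p of 0.05 or more in limma, and the interval farthest from 0 is that of *Slc27a5* on MCD, 0.29 to 0.94.

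The difference between the diet responses of the genotypes was tested directly and called in 0 of 9 members, against 0.0963% of all tested genes. *Pctp* itself was not called for it either (-1.26, adjusted p = 0.132 in limma). In limma, 3 of 9 had an unadjusted p under 0.05, against 15.1% of all tested genes. For *Slc27a5* the difference, *Pctp*-/- response minus WT response, was 0.58 (95% interval 0.13 to 1.04, adjusted p = 0.214) and for *Slc27a2* 0.60 (95% interval 0.073 to 1.12, adjusted p = 0.265), a smaller fall in *Pctp*-/- mice. For *Slc27a4* it was -0.39 (95% interval -0.70 to -0.083, adjusted p = 0.221), a larger fall. Without both WT MCD livers that held muscle markers the differences were 0.41 for *Slc27a5* (adjusted p = 0.697), 0.35 for *Slc27a2* (adjusted p = 0.789) and -0.23 for *Slc27a4* (adjusted p = 0.775). These contrasts share libraries with those of the knockout on MCD, so the values are not separate evidence.

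Genes around the members were read in lists of related function. Of the other FABP and FATP family members, 3 of 11 were expressed highly enough to test. *Fabp7*, the brain form, rose from 1.80 ± 0.536 FPKM (SD, n = 3) to 15.1 ± 5.15 (SD, n = 3) in WT mice (log2 fold change 2.498, adjusted p = 5.40e-05) and by 1.83 on the log2 scale in *Pctp*-/- mice (adjusted p = 6.43e-04). *Slc27a3* fell in *Pctp*-/- mice (-0.75, adjusted p = 0.0154) and was at -0.54 in WT mice (adjusted p = 0.0571). *Fabp9*, *Pmp2* and *Crabp1* were listed at 0 in all 12 libraries.

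Of 14 genes of long-chain fatty acid activation and acyl-CoA binding, 10 were tested, and MCD raised 4 and lowered 4 in WT mice and raised 3 and lowered 5 in *Pctp*-/- mice (median log2 fold change -0.14 and -0.22, against 0.11 and 0.038 over all genes). The synthetases *Acsl3* (1.69, adjusted p = 2.06e-06) and *Acsl4* (1.68, adjusted p = 6.61e-05), which prefer unsaturated fatty acids, rose in WT mice, as did the Golgi protein gene *Acbd3* (0.98, adjusted p = 4.54e-05). *Acbd4*, an acyl-CoA binding protein that tethers peroxisomes to the endoplasmic reticulum, fell (-1.12, adjusted p = 2.24e-06). Among the 5 lists around the members, *Acbd4* was also the gene called for the knockout, on both diets. Whether the loss of PC-TP itself caused this difference was not tested. On chow the WT mean was 21.3 ± 2.15 FPKM (SD, n = 3) and the *Pctp*-/- mean 40.7 ± 2.28 (SD, n = 3), a log2 difference of 0.90 (adjusted p = 0.00180). On MCD the means were 9.23 ± 0.594 (SD, n = 3) and 18.9 ± 1.28 (SD, n = 3), a difference of 0.96 (adjusted p = 7.85e-04), which was 0.87 without both muscle-marked WT livers and lost its call (adjusted p = 0.0924).

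Of 18 genes that supply fatty acids from lipoproteins or by other routes, all were tested, and MCD raised 7 and lowered 3 in WT mice and raised 6 and lowered 4 in *Pctp*-/- mice (median log2 fold change 0.20 and 0.23). *Lpl*, the lipoprotein lipase, had the largest change, from 3.38 ± 1.19 FPKM (SD, n = 3) to 49.3 ± 15.2 (SD, n = 3) in WT mice (3.52, adjusted p = 3.36e-06). Its cofactor gene *Apoc2* rose as well (1.67, adjusted p = 2.86e-06). *Lmf1*, needed for the folding of lipases, fell (-2.19, adjusted p = 5.01e-08), and so did the remnant receptor gene *Lrp1* (-1.89, adjusted p = 2.76e-06). *Lpl* is also expressed by macrophages, whose marker sums are given with *Cd36*.

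Of 9 genes for the palmitoylation and trafficking of CD36, MCD raised 4 and lowered 3 in WT mice and raised 3 and lowered 3 in *Pctp*-/- mice (median log2 fold change 0.24 and 0.041). The kinase gene *Src* (1.27, adjusted p = 2.46e-04) and *Rab14*, for a small GTPase of endosomes (0.45, adjusted p = 0.00117), rose in WT mice. *Zdhhc4*, a palmitoyltransferase gene (-0.55, adjusted p = 0.00174), and *Abhd17a*, which encodes a depalmitoylase (-0.71, adjusted p = 9.92e-04), fell. Of 14 nuclear factors known to act on the members, 2 rose and 9 fell in WT mice and 1 rose and 8 fell in *Pctp*-/- mice (median log2 fold change -0.92 and -0.69). The largest falls in WT mice were those of *Cebpa* (-2.04, adjusted p = 3.66e-06), *Foxa1* (-1.96, adjusted p = 3.81e-04), *Foxa2* (-1.55, adjusted p = 0.00132) and *Foxa3* (-1.32, adjusted p = 3.69e-04), all factors of hepatocyte identity. The receptor genes *Ppard*, *Ppara* and *Pparg* were singled out after their values were seen. *Ppard* fell in WT (-0.84, adjusted p = 6.50e-04) and *Pctp*-/- mice (-1.26, adjusted p = 4.32e-05). *Ppara* fell in WT mice (-0.47, adjusted p = 0.0432) and was at 0.22 in *Pctp*-/- mice (adjusted p = 0.336). The difference between these 2 responses of *Ppara* was not called (0.70, adjusted p = 0.235 in limma). *Pparg* was not called.

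Without both muscle-marked WT livers the diet in WT mice raised 3 and lowered 4 of the fatty acid activation genes, raised 5 and lowered 3 of the supply genes, raised 2 and lowered 2 of the CD36 trafficking genes, and raised 2 and lowered 8 of the nuclear factors. The genes of these 4 lists named above for a change in WT mice kept their direction and their call, *Fabp7* too (2.51, adjusted p = 0.00236), except *Ppara* (-0.57, adjusted p = 0.141). *Lpl* was then at 3.23 (adjusted p = 6.54e-04) and *Src* at 0.88 (adjusted p = 0.00152).

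For each member the tested genes with the nearest profile were found by the root mean square difference of log2(FPKM + 1) over the 12 libraries, each gene centred on its own mean. The points share their libraries and the split by diet. For *Cd36*, which itself varied by 2.48 on this measure, the nearest were *Ifi27l2b* (0.493), *Mmp12*, the macrophage elastase (0.498), and the cytochrome P450 gene *Cyp2b13* (0.517). The means of these neighbours in WT mice on chow were 0.533, 0.0631 and 0.00747 FPKM. The 1 added to FPKM thus limits their rise on this scale. *Fabp2* was followed by *2410006H16Rik* (0.141), *Atp5mpl* (0.155) and *Rpl39* (0.174), the last a ribosomal protein gene, and *Fabp4* by *Clec12a*, a myeloid lectin receptor (0.137), *Ctla2a* (0.148) and *Gngt2* (0.148). *Slc27a5* was followed by *Mfsd4b1* (0.110), *Cyp4f14* (0.130) and *Haao* (0.138). *Slc27a2* lay nearest *Sdc4* (0.145), *Slc25a42* (0.177) and *Ahcy*, which encodes S-adenosylhomocysteine hydrolase (0.180). *Slc27a4* lay near *Lmf2* (0.0575) and *Clpb* (0.0707), and *Slc27a1* nearest *Fbf1* (0.0893), *Lzts2* (0.109) and *Coq8b* (0.117). *Fabp1* lay nearest the arginase gene *Arg1* (0.135), *Rpsa-ps10* (0.184) and *Eci2* (0.185). For *Fabp5* the nearest, *Gm6166* (0.206), *Piezo1* (0.245) and *Plxnb1* (0.246), stayed closer to its own variation of 0.387.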

How the data were processed

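Liver RNA of 12 mice, 3 per group, was sequenced by Novogene. The authors deposited FPKM per gene and library, not rescaled here, and the build given in the submitters' processing notes is mm10. The aligner, counting tool and annotation are not given in the sources used here. A table of read totals and percentages deposited with it gave the depth and the read quality and mapping percentages. FPKM hold no counts, so the Wald test on counts named by the study was replaced by limma 3.58.1 in R 4.3.3.

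Genes with a mean of at least 0.5 FPKM over the 12 libraries (12466 of 35275) were tested on log2(FPKM + 1) with 1 mean per group and a mean-variance trend. P-values were adjusted by Benjamini-Hochberg over all tested genes and called under 0.05 with no minimum fold change. The fit was tested on simulated data. Symbols and positions came from GENCODE M21 on GRCm38, which named 34490 identifiers. No overlap on the same strand was annotated for any member. No pair of libraries held identical values.

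The members and lists were chosen with earlier results of these data known. Named genes are the members, *Pctp*, the 3 nearest profiles of each member and, in each list, up to 4 called genes with the largest change on MCD in WT mice and any called for the knockout. Of the cell type markers, genes bearing on a member were named, and these, *Slc27a3* and the genes listed at 0 were picked after their values were seen. Some genes that this rule names are not reported here. Alternatives varied the pseudocount, filter, scaling, libraries, replicate block, trend, robust estimation and minimum fold change. Leaving out both WT MCD livers with muscle markers was chosen after seeing the data. Python 3.11.15, pandas 2.3.3, SciPy 1.17.1 and matplotlib 3.10.9 were used.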

Additional observations from a re-analysis of the deposited data

How the results depend on the processing

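Of 1021 values of single members under the alternatives, 991 kept their direction and their side of the threshold, 6 lost the call, 1 gained it and 23 turned in sign, each of the 23 in a difference that was never called. Of 119 counts of members, 117 stayed within 1.5 times. With a minimum absolute log2 fold change of 1, the diet called 5 members in WT and 4 in *Pctp*-/- mice. Of the 12466 tested genes it then called 1777 and 1343. Leaving out each library in turn gave 7 to 8 members in WT mice, 7 in *Pctp*-/- mice and 0 for the knockout and for the difference of responses. Over all 12466 tested genes these fits called 6171 to 7492 for the diet in WT mice and 5254 to 6516 in *Pctp*-/- mice. Without both WT MCD livers that held muscle markers, 7 members were called in WT mice. *Slc27a1* gave no value under a mean FPKM of at least 5.

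Signs turned as follows. With quantile normalization *Slc27a5* was at -0.0079 for the knockout on chow, and *Slc27a1* at 0.085 for the knockout on MCD and 0.0066 for the difference of responses. With median-of-ratios scaling the knockout on MCD gave 0.052 for *Cd36* and 0.070 for *Slc27a1*. Without both muscle-marked livers the knockout on MCD gave 0.14 for *Cd36*, -0.19 for *Fabp1* and 0.16 for *Slc27a1*, and the difference of responses -0.066 for *Fabp1* and 0.087 for *Slc27a1*. When each library was left out in turn, the knockout on chow ranged from -0.035 to 0.68 for *Cd36*, -0.32 to 0.039 for *Fabp1*, -0.074 to 0.17 for *Slc27a1* and -0.086 to 0.11 for *Slc27a5*, and the knockout on MCD from -0.20 to 0.18 for *Cd36* and -0.090 to 0.14 for *Slc27a1*. The diet in *Pctp*-/- mice ranged from -0.041 to 0.29 for *Fabp5*, and the difference of responses from -0.28 to 0.018 for *Fabp2* and -0.18 to 0.074 for *Slc27a1*. The cause was not tested.

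Over all tested genes the knockout on chow called 17 (10 with no filter, 11 at 5 FPKM, 4 with its 6 libraries alone, 8 to 34 without 1 library, 9 without the muscle-marked livers). The knockout on MCD called 102 (55 with median-of-ratios scaling, 19 with its 6 libraries, 33 with the minimum fold change, 27 to 173 without 1 library, 11 without the muscle-marked livers), and its split of 37 higher and 65 lower became 69 and 41 with quantile normalization. The diet called 7110 in WT mice (4448 at 5 FPKM, 1777 with the minimum fold change, 4659 without the muscle-marked livers) and 6276 in *Pctp*-/- mice (4047 and 1343 under the first 2 of these). The difference of responses called 12 (3 and 4 with pseudocounts of 0.1 and 0.5, 6 with median-of-ratios scaling, 7 with no trend, 0 to 60 without 1 library, 1 without the muscle-marked livers).

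Groups share replicate numbers in the labels, but samples with the same number deviated together with correlations of only -0.10 to 0.20, not all above 0.1, so the numbers were not taken as pairs. With the replicate number as a block, the diet still called 8 members in WT and 7 in *Pctp*-/- mice, the knockout 0 on each diet and the difference of responses 0, while the counts over all genes became 32 for the knockout on chow and 59 for the difference of responses. Libraries with the same number were not the best correlated in every case. With 3 mice a group and no counts per gene, depth per gene is unknown, and differences on the scale of the intervals given cannot be told from 0.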
